A study of Mus musculus with 2 samples.

Results

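A set of 10 genes of the Wnt signalling pathway was followed by cell type in the newborn mouse dentate gyrus, the part of the hippocampus that goes on making neurons after birth. They were the ligand genes Wnt5a, Wnt7a, Wnt7b and Wnt8b, the receptor gene Fzd8, the antagonist genes Sfrp1 and Frzb, the transcription factor genes Lef1 and Tcf7l2, and the feedback gene Axin2. They were chosen by symbol, and all 10 were found in the gene list of the series. KO denotes 1 single-cell library from hGFAP-Cre;Kdm6bF/F mice at postnatal day 2, in which Cre under a human GFAP promoter acts on floxed Kdm6b, the gene of an H3K27 demethylase, in radial glia, whose descendants inherit the deletion. Control denotes 1 library from littermate controls of the same age, labelled WT, whose alleles are not otherwise given. In each library the dentate gyri of 2 animals were pooled. With 1 library per genotype there is no test between genotypes and no replicate check: values compare these libraries, and every interval covers counting error only.

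Wnt ligands are secreted proteins that bind Frizzled receptors. In the canonical branch this stops the destruction complex, built on APC and AXIN proteins, from degrading beta-catenin, which then enters the nucleus and acts with TCF/LEF factors. SFRP1 and FRZB (also called SFRP3) bind Wnt proteins outside the cell and limit their access to receptors, while AXIN2 is a target of the pathway that acts back on it as an inhibitor. In the developing hippocampus Wnt signals from the cortical hem, a strip of tissue at the medial edge of the cortex, are needed for its growth, and mice without LEF1 lack a dentate gyrus. Brain endothelial cells depend on canonical Wnt signals, among them WNT7A and WNT7B, for their barrier properties.

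After filtering, 1931 KO and 2957 control cells remained, with medians of 9267 and 7342 unique molecular identifiers (UMIs, each a counted transcript) per cell and 25487578 and 31518520 UMIs in all. Before filtering 9 cell barcodes occurred in both libraries, and 6 after it. Clustering gave 26 clusters, of which 21 were named by marker genes; such names are given as "like", and 15 classes with at least 20 cells per library were compared. Y-linked UMIs without Xist were found in 0 of 1931 KO cells and 33.3% of control cells, so the libraries also differed in sex. Kdm6b had 57.7 CPM (UMIs scaled to a fixed total of all UMIs in the cells summed) in KO cells and 58.1 CPM in control cells, a log2 ratio of -0.01. The assay counts 3′ ends and no source used here names the floxed exons, so these values do not check the labels. Kdm6b was at 17.6 CPM in KO and 40.2 CPM in control dividing cell-like cells (log2 ratio -1.15; ratio interval 0.222 to 0.795), at 45.3 and 89.4 CPM in intermediate progenitor-like cells (-0.95; 0.299 to 0.824), and at 76.8 and 64.0 CPM in the class named radial glia/neural stem cell-like, called RG-like here (0.26; 0.772 to 1.89).

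The 5′ regions of 6 of the genes were found in RefSeq (GRCm38.p6), as windows running from 250 bases before to 50 bases after an annotated start. They are shown for Frzb, Wnt8b and Lef1, the 3 members whose ratio intervals left out 1 in RG-like cells. Within the subcluster that held most of their UMIs, described below, all 3 intervals held 1. Axin2 is also shown, whose ratio in RG-like cells lay within 1.5-fold on few UMIs. Capitals mark a TCF/LEF motif, searched as AACAAAG, as ATCAAAG, as TACAAAG and as TTCAAAG, on both strands. Sequences read 5′ to 3′ on the strand of the gene.

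Frzb, chr2:80447347-80447646, minus strand: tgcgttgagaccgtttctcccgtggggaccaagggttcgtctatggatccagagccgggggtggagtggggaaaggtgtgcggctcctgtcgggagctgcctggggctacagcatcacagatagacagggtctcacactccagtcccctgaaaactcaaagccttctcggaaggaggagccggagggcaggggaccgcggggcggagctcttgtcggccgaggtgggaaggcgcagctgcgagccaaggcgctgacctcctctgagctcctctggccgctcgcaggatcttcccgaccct
Wnt8b, chr19:44493222-44493521, plus strand: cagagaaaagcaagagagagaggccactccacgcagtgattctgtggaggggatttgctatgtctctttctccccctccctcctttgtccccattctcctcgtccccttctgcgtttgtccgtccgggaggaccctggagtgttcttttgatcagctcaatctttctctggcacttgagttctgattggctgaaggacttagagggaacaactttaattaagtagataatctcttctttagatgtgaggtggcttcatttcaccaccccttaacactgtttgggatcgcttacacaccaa
Lef1, first start, chr3:131110047-131110346, plus strand: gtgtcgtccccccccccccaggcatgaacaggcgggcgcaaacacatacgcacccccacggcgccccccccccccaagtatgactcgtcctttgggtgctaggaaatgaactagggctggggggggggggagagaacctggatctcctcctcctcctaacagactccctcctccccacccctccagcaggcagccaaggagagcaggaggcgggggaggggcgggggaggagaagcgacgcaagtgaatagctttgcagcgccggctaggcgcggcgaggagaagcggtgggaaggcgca
Lef1, downstream start, chr3:131156044-131156343, plus strand: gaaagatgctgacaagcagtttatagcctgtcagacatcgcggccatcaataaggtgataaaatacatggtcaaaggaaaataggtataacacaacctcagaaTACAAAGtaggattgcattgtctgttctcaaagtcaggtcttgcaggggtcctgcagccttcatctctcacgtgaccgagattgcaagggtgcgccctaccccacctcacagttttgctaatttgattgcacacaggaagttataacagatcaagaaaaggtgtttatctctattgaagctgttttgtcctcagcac
Axin2, chr11:108920099-108920398, plus strand: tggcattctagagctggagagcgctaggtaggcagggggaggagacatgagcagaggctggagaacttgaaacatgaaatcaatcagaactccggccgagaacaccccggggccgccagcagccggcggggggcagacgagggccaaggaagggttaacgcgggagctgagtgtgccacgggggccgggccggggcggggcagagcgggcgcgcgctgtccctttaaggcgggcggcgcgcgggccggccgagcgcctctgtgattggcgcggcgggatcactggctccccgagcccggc

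The motif occurred in 16.9% of 32851 RefSeq windows of the same length. Among the windows shown it was present at the downstream start of Lef1, 147 bases before that start, and in no other. The Lef1 windows at chr3:131110073-131110372 and chr3:131112541-131112840, not shown, had 0 matches. Tcf7l2, which lay within 1.5-fold in RG-like cells, had 1 match, 14 bases before a downstream start. The Wnt8b window stood apart from the others at annotated first starts in base composition, with 48.3% G and C and 6 CpG dinucleotides, against 64.7% and 20 for Frzb, 67.3% and 18 for Lef1 and 70.0% and 31 for Axin2. The median over all windows was 52.7% and 7. A match describes letters only.

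Radial glia and neural stem cells line the germinal zone of the dentate gyrus and give rise to its neurons and astrocytes. The class named after them was 1 cluster of 129 KO and 136 control cells. In it Frzb, Lef1 and Wnt8b were lower in the KO library, while Sfrp1, Wnt7b and Axin2 lay within 1.5-fold. Frzb (ENSMUSG00000027004; chromosome 2, 80411970 to 80447625, minus strand) had 10 UMIs in KO cells and 61 in control cells, which is 13.5 CPM (95% Poisson interval 6.46 to 24.8) against 115 CPM (87.8 to 148). The log2 ratio was -3.03, with a ratio interval of 0.0536 to 0.231. Lef1 (ENSMUSG00000027985; chromosome 3, 131110471 to 131224356, plus strand) had 14 and 41 UMIs, or 18.9 CPM in KO and 77.2 CPM in control cells, a log2 ratio of -2.0 (ratio interval 0.123 to 0.458). A predicted gene, Gm42449, overlaps Lef1 on the same strand, so reads of the pair may be split between them. Wnt8b (ENSMUSG00000036961; chromosome 19, 44493472 to 44514273, plus strand) had 11 UMIs in KO cells and 25 in control cells, 14.8 CPM against 47.1 CPM, a log2 ratio of -1.63 (0.140 to 0.664). For these 3 genes the intervals of the KO and control levels did not overlap. In Xist-positive cells without Y-linked UMIs the log2 ratios were -3.18 for Frzb, -1.73 for Lef1 and -1.57 for Wnt8b.

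The other members of the set varied less in this class or were too thinly counted to place. Sfrp1 (ENSMUSG00000031548; chromosome 8, 23411502 to 23449632, plus strand) had 277 UMIs in KO cells and 214 in control cells, 373 CPM against 403 CPM, a log2 ratio of -0.11 (ratio interval 0.773 to 1.11). Axin2 (ENSMUSG00000000142; chromosome 11, 108920349 to 108950783, plus strand) had 17 and 11 UMIs, 22.9 CPM in KO and 20.7 CPM in control cells, a log2 ratio of 0.12. Its ratio interval, 0.489 to 2.61, held 1.5-fold in both directions, so a difference of that size was not detectable at this depth. Wnt7b stood at 45.8 CPM in KO and 43.3 CPM in control cells (0.07) and Tcf7l2 at 52.6 and 39.5 CPM (0.40). Wnt5a, with 17 and 5 UMIs, was at 1.19 and Wnt7a, with 15 and 18 UMIs, at -0.74, and both intervals held 1. Fzd8 had 3 KO UMIs and 0 control UMIs. Of the 9 members with at least 20 UMIs in the class, 1 was at least 1.5-fold higher and 4 at least 1.5-fold lower in the KO library. Over all 7677 genes measured there, 13.3% were higher and 14.1% lower by that much.

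**Figure D1:**
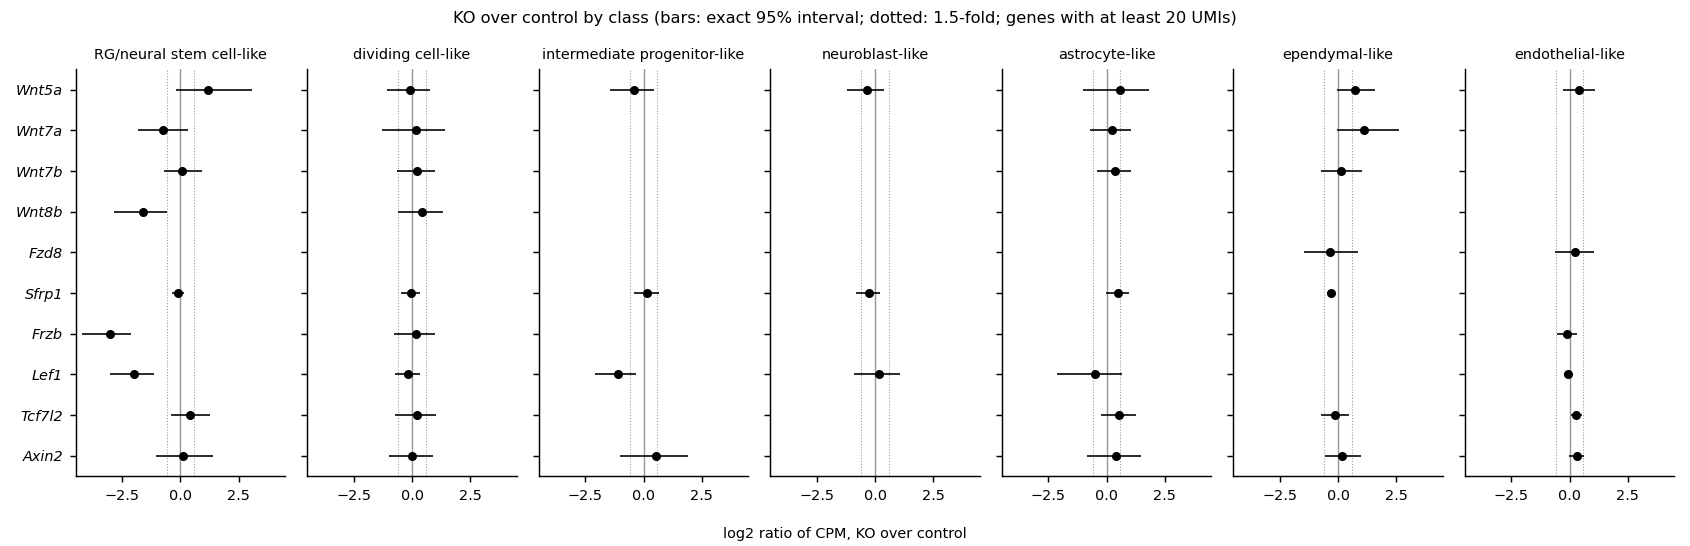
Log2 ratio of CPM, KO over control, for each gene (rows) in 7 classes (panels), with exact 95% intervals; genes with fewer than 20 UMIs in a class are not drawn and dotted lines mark 1.5-fold. Frzb (-3.03), Lef1 (-2.0) and Wnt8b (-1.63) stand left of the line in RG-like cells, and Lef1 (-1.11) in intermediate progenitor-like cells.

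Frzb, Wnt8b and Lef1 shared a location within the class, most clearly in the control library. Clustering the 265 cells again, without the Wnt and marker genes, gave 3 subclusters, and subcluster 1 held 7 of 10 KO and 60 of 61 control UMIs of Frzb, 9 of 11 and 25 of 25 of Wnt8b, and 7 of 14 and 38 of 41 of Lef1. That subcluster was led by Gpd1 and Pdlim3, with Frzb and Wnt8b next, so their high level in it is a description. Among stem cell and glial markers there, Thrsp was at 839 CPM in KO and 1162 CPM in control cells (log2 ratio -0.46; ratio interval 0.538 to 0.953), Gfap at 569 and 877 CPM (-0.61; 0.453 to 0.906) and Dbx2 at 28.4 and 151 CPM (-2.10; 0.0222 to 0.722). Hopx, at 327 and 350 CPM, and Tfap2c, at 370 and 255 CPM, had intervals that held 1. Subcluster 1 held 17 of 129 KO cells and 79 of 136 control cells. Subcluster 0, led by Luzp2 and Ppp1r3g, held 69 KO and 44 control cells, and subcluster 2, led by Knl1 and Dmkn, held 43 and 13, with 42 and 11 UMIs of the proliferation gene Mki67. This count was made after the class values were seen.

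Within subcluster 1 the log2 ratios of Frzb and Lef1 lay nearer to 0. Frzb had 7 UMIs in KO cells and 60 in control cells, 99.5 CPM against 196 CPM, a log2 ratio of -0.89 with an interval that held 1 (0.195 to 1.11). Lef1 had 7 and 38 UMIs, 99.5 CPM in KO and 124 CPM in control cells (-0.24; 0.302 to 1.81). Wnt8b had 9 and 25 UMIs and was at 128 CPM in KO and 81.9 CPM in control cells (0.69; 0.642 to 3.46), the opposite direction to the class as a whole. For each of Frzb, Lef1 and Wnt8b the ratio over the whole class lay below the gene's interval within the subcluster. Pooling the subclusters with Mantel-Haenszel weights gave -0.92 for Frzb, -0.42 for Lef1 and 0.74 for Wnt8b.

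Sfrp1 had another place. Its highest level was in subcluster 0, with 199 UMIs in KO cells and 129 in control cells, 561 CPM against 839 CPM. The log2 ratio there was -0.58 with a ratio interval of 0.533 to 0.842, beside a class value near 0. In subcluster 1 it was 128 CPM in KO and 229 CPM in control cells, and in subcluster 2 218 and 208 CPM. Axin2 was spread over the subclusters, with 8, 4 and 5 UMIs in KO cells and 3, 8 and 0 in control cells of subclusters 0, 1 and 2. Wnt7a, another member at least 1.5-fold lower in the class, had 9, 0 and 6 UMIs in KO cells and 6, 8 and 4 in control cells of them.

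**Figure D2:**
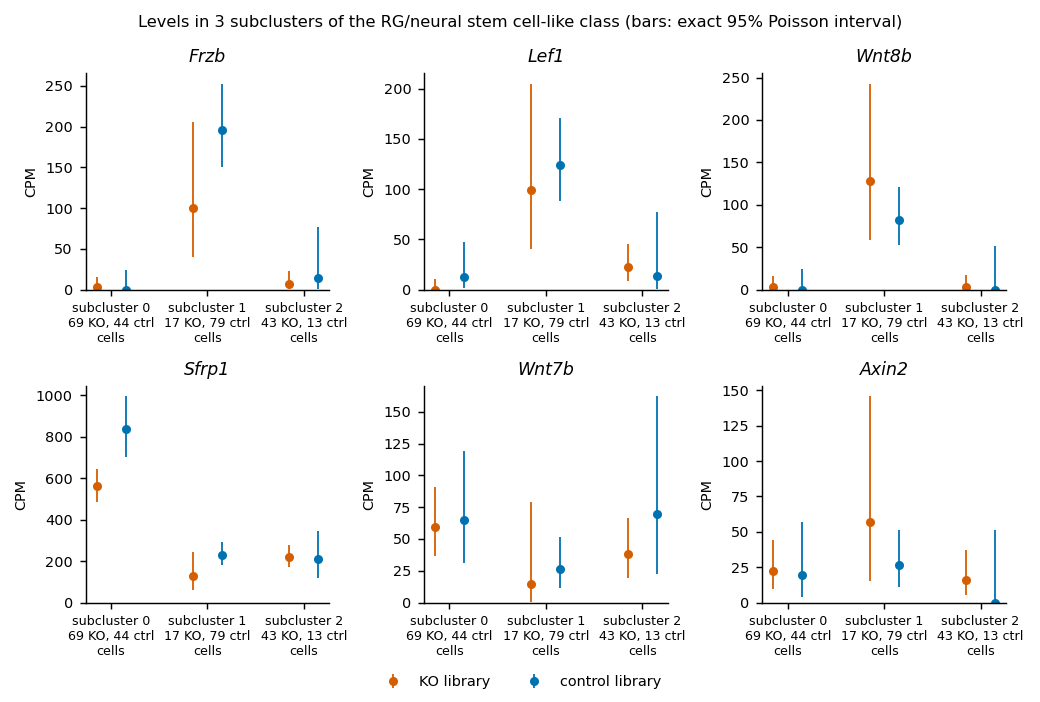
CPM (vertical axes) of 6 genes in the 3 subclusters of the RG-like class, KO left of control, with exact 95% Poisson intervals and cell numbers under each subcluster. Frzb and Wnt8b are highest in subcluster 1, as is Lef1; it holds 17 KO and 79 control cells, and Sfrp1 is highest in subcluster 0.

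The same UMIs were also counted by cell, which gives no separate evidence. Subcluster 1, where most Frzb UMIs lay, held 17 KO and 79 control cells, and its part in these shares was not tested. After thinning each cell to 2000 UMIs, which left out 158 KO and 202 control cells of all classes, Frzb was seen in 4 of 112 KO cells (3.57%) and 25 of 128 control cells (19.5%) of the RG-like class. Without thinning the shares were 3.88% and 25.7%. Wnt8b was seen in 5 KO cells (4.46%) and 11 control cells (8.59%), and Lef1 in 4 (3.57%) and 13 (10.2%). In microglia-like cells, which do not belong to the neural lineage, thinned Frzb and Wnt8b were seen in 0 of 22 KO and 0 of 34 control cells, which allows shares of up to 13.6% and 8.82%. Lef1 was seen there in 1 KO cell (4.55%) and 1 control cell (2.94%), from which the Lef1 share in KO RG-like cells could not be told apart. By summed level Lef1 was at 18.9 CPM in KO RG-like cells, 12.4 CPM (up to 44.7) in KO microglia-like cells and 0.451 CPM (up to 2.51) in KO GABAergic neuron-like cells. Median depth before thinning was 5479 UMIs in KO and 3797 in control RG-like cells, and 5109 and 3635 in microglia-like cells.

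Other lists moved with the class. Summed ependymal markers were 593 CPM in KO and 241 CPM in control cells of it, and 8 of the 8 measured were at least 1.5-fold higher in the KO library. Dividing cell markers summed to 623 and 388 CPM, with 8 of 13 measured higher and 1 lower. The markers of radial glia themselves summed to 21837 CPM in KO and 19448 CPM in control cells, with 0 higher and 4 lower of 17. Mitochondrial UMIs were 3.49% and 2.83%. Their part in the Frzb, Lef1 and Wnt8b values was not tested.

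In the dividing cell-like class, 71 KO and 199 control cells led by Esco2 and Sgo1, all 3 genes lay within 1.5-fold. Frzb was at 23.0 CPM in KO and 20.9 CPM in control cells (log2 ratio 0.16; -0.95 after thinning to 2000 UMIs), Wnt8b at 20.3 and 15.4 CPM (0.42), and Lef1 at 58.1 and 66.0 CPM (-0.17; ratio interval 0.606 to 1.26). Of its 9 measured members 0 passed 1.5-fold in either direction, against 8.23% higher and 10.7% lower over all genes. Whether these values differ from those in RG-like cells was not tested.

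Intermediate progenitors divide to give the neuroblasts of the granule cell layer. In the 91 KO and 213 control cells named after them Lef1 was lower in the KO library, with 14 UMIs against 66, or 30.2 CPM (16.5 to 50.7) against 67.1 CPM (51.9 to 85.3). The log2 ratio was -1.11 (ratio interval 0.234 to 0.811). Both clusters of the class were on the same side, cluster 10 with 8 and 47 UMIs (-1.28; 0.159 to 0.834) and cluster 17 with 6 and 19 (-0.68), where the interval held 1. Without filters on cells the class value was -0.25, with KO UMIs drawn down to the control depth -0.47, and over 16 alternatives it lay between -1.30 and -0.25. Erythroid genes summed to 47.5 CPM in KO and 7866 CPM in control cells of the class. Dividing cell markers moved with Lef1, at 235 CPM in KO and 566 CPM in control cells with 11 of 12 measured lower, and the part of either list was not tested. Sfrp1 stood at 99.3 CPM in KO and 89.4 CPM in control cells and Wnt5a at 30.2 and 41.7 CPM. Of the 4 members measured, 0 were higher and 1 was lower, against 8.93% and 13.6% of all genes.

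In neuroblast-like cells, 127 KO and 389 control cells, none of the 3 measured members passed 1.5-fold, against 8.60% higher and 11.3% lower over all genes. Sfrp1 was at 80.1 CPM in KO and 97.2 CPM in control cells, Wnt5a at 34.6 and 44.7 CPM and Lef1 at 25.5 and 23.4 CPM. Wnt8b had 0 UMIs in both libraries in this class. Frzb had 0 KO UMIs and 1 control UMI. In the 35 KO and 56 control granule neuron-like cells Wnt5a was the only member with 20 UMIs, at 48.5 and 30.9 CPM (0.66; ratio interval 0.663 to 3.65), and 13.6% of all genes were higher there by 1.5-fold.

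Of the ligand genes, Wnt8b and Wnt5a both peaked in cluster 18, which was left unnamed and is led by Otx2 and Lmx1a. It held 71 KO and 25 control cells. Wnt8b was at 184 CPM (147 to 227) in its KO and 231 CPM (163 to 318) in its control cells, a log2 ratio of -0.34 with an interval that held 1, and -1.31 after thinning to 2000 UMIs. Wnt5a (ENSMUSG00000021994; chromosome 14, 28504750 to 28527448, plus strand), which acts mainly outside the beta-catenin branch, was at 148 CPM in KO and 119 CPM in control cells (0.29; 0.743 to 2.20). In both libraries the intervals of these levels lay above those of the next class. Where a class joined several clusters, these were not set against cluster 18 singly. Of the 3 members measured there 0 passed 1.5-fold, against 14.8% higher and 14.8% lower over all genes. Otx2 and Lmx1a are expressed in the cortical hem and choroid plexus of the mouse embryo, a fact given here as background and not as a name for the cluster.

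Outside cluster 18 Wnt8b UMIs came from RG-like and dividing cell-like cells, with 1 KO and 5 control UMIs in intermediate progenitor-like cells and at most 2 UMIs per library in any other class. Over all cells it had 116 UMIs in KO cells and 97 in control cells, 4.55 CPM against 3.08 CPM (0.56; ratio interval 1.12 to 1.96). Of these, 87 KO and 37 control UMIs came from cluster 18. Without clusters 14 and 18 the value was -0.64, and with clusters weighted by Mantel-Haenszel it was -0.45, the opposite direction.

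After cluster 18, the levels of Wnt5a in granule neuron-, GABAergic neuron- and neuroblast-like cells could not be ordered within their intervals. In GABAergic neuron-like cells it was at 44.2 CPM in KO and 42.3 CPM in control cells (0.06). Most of this came from cluster 16, led by Htr3a and Adarb2, with 103 and 74.3 CPM, against 15.5 and 20.1 CPM in cluster 11, led by Cort and Akr1c18. In pyramidal neuron-like cells Wnt5a was low and lower in the KO library, 2.26 CPM against 4.23 CPM (-0.89; 0.310 to 0.888), though in each of the 4 clusters taken alone the interval held 1. In ependymal-like cells it was at 24.7 CPM in KO and 14.7 CPM in control cells (0.72; 0.975 to 3.0) and Wnt7a at 12.4 and 5.43 CPM (1.11; 0.962 to 6.21), both with intervals that held 1. These were the 2 of 7 members measured there that were higher, and 0 were lower, against 9.85% and 7.11% of all genes.

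Wnt7b (ENSMUSG00000022382; chromosome 15, 85535437 to 85582473, minus strand) was highest in Cajal-Retzius cell-like cells, named after the early-born reelin-producing neurons of the marginal zone. It was at 210 CPM (165 to 263) in KO and 211 CPM (185 to 239) in control cells of this class, 74 and 247 UMIs, with a log2 ratio that rounded to 0 and a ratio interval of 0.757 to 1.30. Thinned to 2000 UMIs, 15 of 30 KO cells and 51 of 130 control cells had a Wnt7b UMI, against 0 of 22 and 0 of 34 microglia-like cells. Of the 2 members measured in Cajal-Retzius cell-like cells 0 passed 1.5-fold, against 10.8% higher and 10.4% lower over all genes. After these, astrocyte-like cells, at 59.5 CPM in KO and 46.9 CPM in control cells, and RG-like cells, at 45.8 and 43.3 CPM, could not be ordered.

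Over all cells Wnt7b was lower in the KO library, 408 UMIs against 690, or 16.0 CPM against 21.9 CPM (-0.45; ratio interval 0.645 to 0.828). Cajal-Retzius cell-like cells numbered 32 in the KO and 130 in the control library. The Mantel-Haenszel ratio over clusters was 0.17 on the log2 scale. In no class compared did Wnt7b have 20 UMIs and an interval below 1.

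Wnt7a (ENSMUSG00000030093; chromosome 6, 91363981 to 91411363, minus strand) was counted mainly in glia and interneurons. It was at 39.7 CPM in KO and 34.0 CPM in control astrocyte-like cells (0.25), at 20.2 and 33.9 CPM in RG-like cells, and at 19.9 and 22.0 CPM in GABAergic neuron-like cells. These neighbours in the order had overlapping intervals in each library. Endothelial-like cells, which respond to this ligand, had 1 KO and 4 control UMIs.

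**Figure D3:**
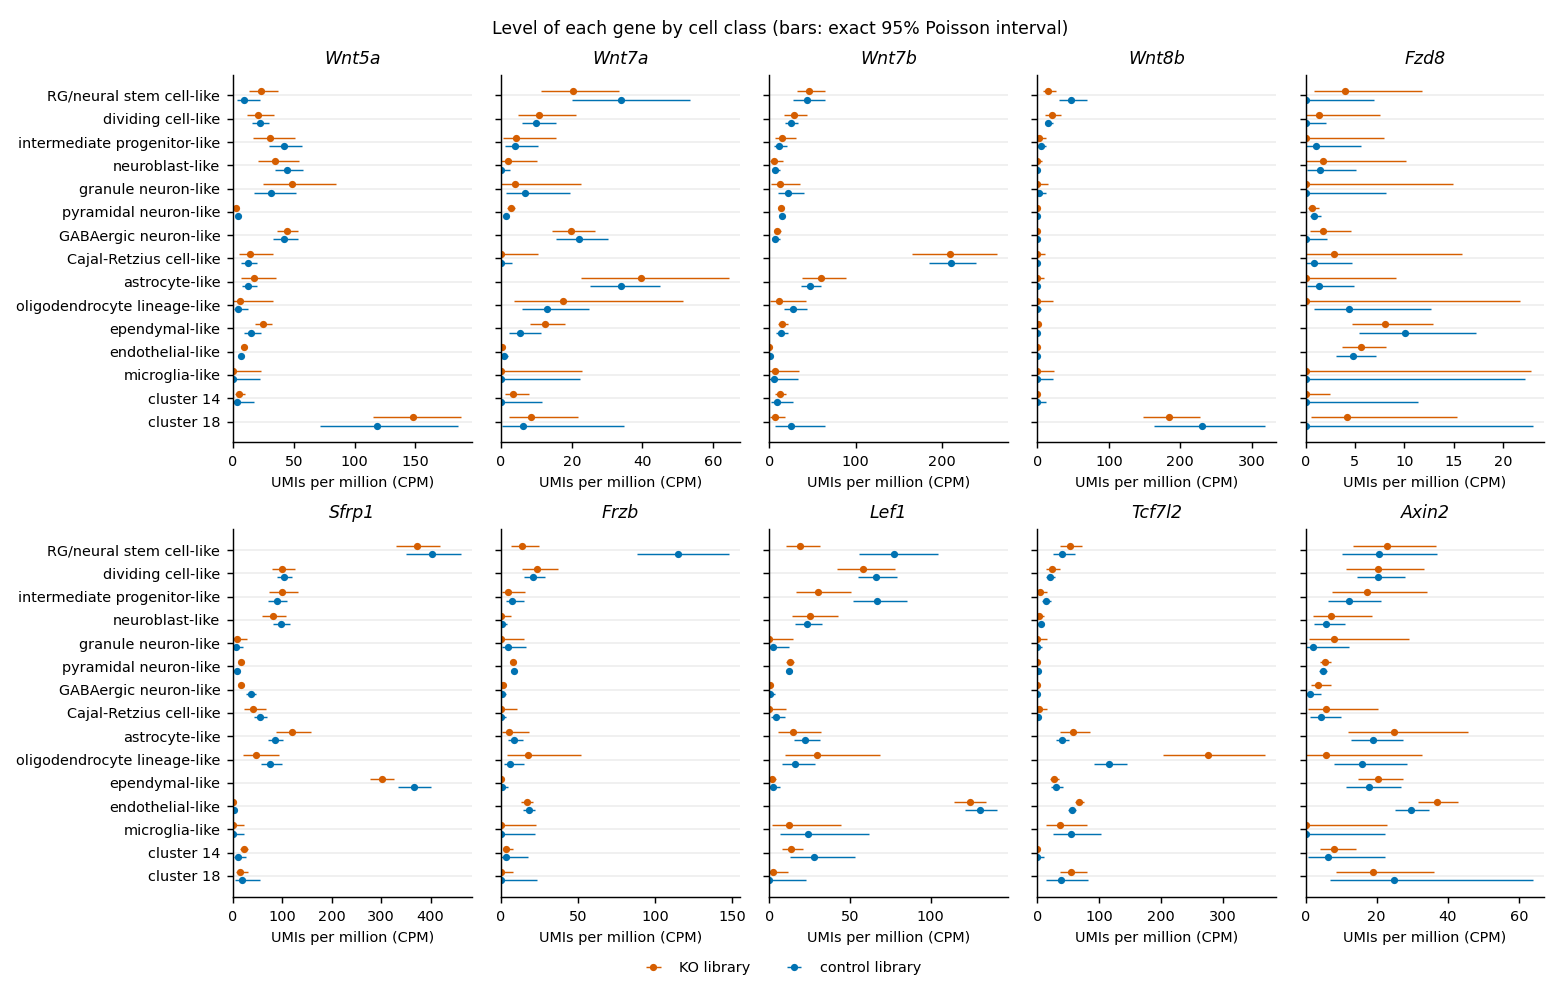
CPM (horizontal axes, each panel with its own scale) of the 10 genes in 15 classes, KO above control, with exact 95% Poisson intervals. Wnt7b peaks in Cajal-Retzius cell-like cells, Wnt8b and Wnt5a in cluster 18, Sfrp1 in radial glia and ependymal-like cells, Lef1 in endothelial-like cells and Tcf7l2 in oligodendrocyte lineage-like cells; Frzb is highest in control RG-like cells.

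Sfrp1 had the most UMIs of the 10 genes. After RG-like cells it was highest in ependymal-like cells, which line the ventricle, at 301 CPM (278 to 325) in the 158 KO cells and 367 CPM (335 to 402) in the 88 control cells. The ratio interval, 0.727 to 0.926, left out 1, but the log2 ratio of -0.29 lay within 1.5-fold. In pyramidal neuron-like cells Sfrp1 was low and higher in the KO library, 16.0 CPM against 8.84 CPM (0.86; 1.42 to 2.32), but within 1.5-fold, at 0.29, after thinning to 2000 UMIs. The clusters of that class were weakly named, with mean log2 folds of the pyramidal markers from -0.05 to 0.64. In GABAergic neuron-like cells Sfrp1 was lower, 16.7 CPM against 35.7 CPM (-1.09; 0.301 to 0.715). Over all cells it stood at 54.4 CPM in KO and 49.2 CPM in control cells (0.15). Of 7 members measured in pyramidal neuron-like cells 2 were higher and 1 was lower, against 5.35% and 7.45% of all genes. The higher one besides Sfrp1, Wnt7a, was at 0.88, and between 0.06 and 1.36 over 14 alternatives. Of 4 in GABAergic neuron-like cells 0 were higher and 1 was lower, against 6.23% and 6.82%. Cluster 14, left unnamed, held 142 KO and 20 control cells. Sfrp1 was at 1.01 there, with an interval that held 1, and Lef1 at -1.10. Of its 3 measured members 1 was higher and 1 lower, against 12.6% and 13.1% of all genes. Frzb was present outside the radial glia at 16.6 CPM in KO and 17.9 CPM in control endothelial-like cells (-0.11; 0.677 to 1.26).

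Endothelial-like cells, whose lineage is not the target of this Cre, held more Lef1 and Axin2 UMIs than any other class. Lef1 was at 124 CPM (115 to 135) in the 232 KO cells and 131 CPM (121 to 141) in the 231 control cells, 600 and 679 UMIs, with a log2 ratio of -0.07 (0.850 to 1.06). Axin2 had 178 and 154 UMIs, 36.9 CPM against 29.7 CPM (0.31; 0.996 to 1.55), and Tcf7l2 325 and 287 UMIs, 67.4 CPM against 55.3 CPM (0.28; 1.04 to 1.43). Fzd8 (ENSMUSG00000036904), a receptor gene with few UMIs anywhere, had 27 and 25 UMIs, 5.60 CPM in KO and 4.82 CPM in control cells, and in ependymal-like cells 17 and 13 UMIs, 8.08 and 10.1 CPM. Of the 6 members measured in endothelial-like cells, 0 passed 1.5-fold, against 4.30% higher and 5.42% lower over all genes. Mural markers were also counted in this class, at 3959 CPM in KO and 4736 CPM in control cells, and haemoglobin and other erythroid genes at 26825 and 21009 CPM. Their part was not tested.

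In no compared class with 20 UMIs did Axin2 pass 1.5-fold. Its levels in astrocyte-like (24.8 CPM in KO, 19.1 CPM in control), ependymal-like (20.4 and 17.8 CPM) and dividing cell-like cells (20.3 and 20.4 CPM) could not be ordered. Over all cells it was at 15.3 CPM in KO and 12.3 CPM in control cells (0.32; 1.08 to 1.44). Over 18 alternatives, Mantel-Haenszel weights over clusters among them, this log2 ratio lay between 0.15 and 0.44. Endothelial-like cells made up 232 of 1931 KO cells and 231 of 2957 control cells, and the part of class makeup was not tested. Mural-like and leptomeningeal fibroblast-like cells, both under 20 cells in 1 library, had the highest Axin2 levels, from 7 to 16 UMIs each. They were 53.7 CPM in KO and 103 CPM in control mural-like cells, and 105 and 61.7 CPM in fibroblast-like cells.

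Tcf7l2 (ENSMUSG00000024985; chromosome 19, 55741820 to 55933654, plus strand), whose product pairs with beta-catenin and is also required for oligodendrocyte maturation, was highest in oligodendrocyte lineage-like cells. It had 47 UMIs in 30 KO cells and 80 UMIs in 134 control cells, 277 CPM (203 to 368) against 116 CPM (92.2 to 145). The log2 ratio was 1.26 (ratio interval 1.62 to 3.45). Genes of the oligodendrocyte lineage were looked at after this value was seen, and some were higher with it. Mbp, a myelin protein gene, was at 4727 CPM in KO and 1105 CPM in control cells (2.10) and Enpp6, a gene of newly formed oligodendrocytes, at 336 and 161 CPM (1.06). Neu4 was at 124 and 65.4 CPM (0.94). The precursor genes Pdgfra and Cspg4 stood at 459 and 499 CPM (-0.11) and 88.3 and 137 CPM (-0.59). Gpr17 and Bmp4, genes of committed precursors, were at 112 and 166 CPM (-0.54) and 64.8 and 87.2 CPM (-0.38). The intervals of these 4 genes held 1. Whether the Tcf7l2 value comes with the makeup of the class was not tested. Of the 3 members measured in it 1 was higher and 2 were lower, against 12.8% and 17.2% of all genes; the lower ones, Sfrp1 (-0.61) and Wnt7b (-0.95), had intervals that held 1. Ppnr overlaps Tcf7l2 on the same strand.

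Taking all cells of each library together, 0 of the 10 members passed 1.5-fold, against 8.54% higher and 5.34% lower over 16081 genes. The 10 lay between -0.46 (Frzb, 7.89 CPM in KO and 10.9 CPM in control cells) and 0.56 (Wnt8b). Intervals left out 1 for Wnt7b, Frzb and Lef1 (-0.15), which were lower, and for Wnt8b, Sfrp1, Tcf7l2 (0.27) and Axin2, which were higher. These sums depend on how many cells of each class a library held.

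The wider pathway was read through 128 Wnt genes in 10 roles. In RG-like cells 64 of them had at least 20 UMIs, and 11 were higher, 15 lower and 38 within 1.5-fold, with a median log2 ratio of 0.07 against -0.05 over all genes, of which 13.3% were higher and 14.1% lower. Feedback genes and targets were the role with the most lower members, 5 of 9 measured with 0 higher and a median of -0.71. They included Sp5 (5 UMIs in KO, 18 in control, or 6.74 and 33.9 CPM; -2.23), Ccnd1, which encodes cyclin D1 (44.5 and 126 CPM; -1.49; ratio interval 0.225 to 0.543), Id2 (218 and 523 CPM; -1.26) and Tnfrsf19 (136 and 222 CPM; -0.71), and Nkd1 at -0.98 with an interval that held 1. Tnfrsf19 also counts among the endothelial Wnt targets. Axin2, in the same role, was at 0.12. Of this role only Axin2 was split by subcluster. The part of subcluster makeup in the other values was not tested. Ccnd1 and Id2 also answer to other pathways.

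Of 8 receptor and co-receptor genes measured 3 were higher, 1 was lower (Fzd1, -0.84) and 4 lay within 1.5-fold, and of 4 carrier genes 1 was higher. Over all genes measured in the class 13.3% were higher and 14.1% lower, beside which each role here holds few genes. The higher receptor genes included Fzd3 (249 CPM in KO, 137 CPM in control; 0.85) and the co-receptor gene Ryk (53.9 and 26.4 CPM; 1.0). Gpc4, a cell-surface proteoglycan that binds Wnts, was at 91.7 and 39.5 CPM (1.19; 1.40 to 3.98), and Apc, of the destruction complex, at 133 and 79.1 CPM (0.75). Fzd2, also among the higher receptor genes, was at 1.06. Of the inhibitors of beta-catenin, Ctnnbip1 was lower at 360 CPM in KO and 657 CPM in control cells (-0.87). Of 12 nuclear factor genes measured 2 were higher and 3 lower, with a median of -0.02. The higher ones were Bcl9l (23 KO and 4 control UMIs, 1.90) and Tcf7l1 (0.88, interval holding 1). Lef1 and Ctnnbip1 were among the lower ones. Of 4 secreted antagonists 2 were lower, Frzb and Dkk3 (-0.78), and 0 higher. Of 3 genes of the R-spondins and receptor turnover 2 were higher, Rspo1 at 48.5 CPM in KO and 11.3 CPM in control cells (2.01; 1.79 to 12.5) and Lgr4 at 27.0 and 16.9 CPM (0.63), whose interval held 1.

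**Figure D4:**
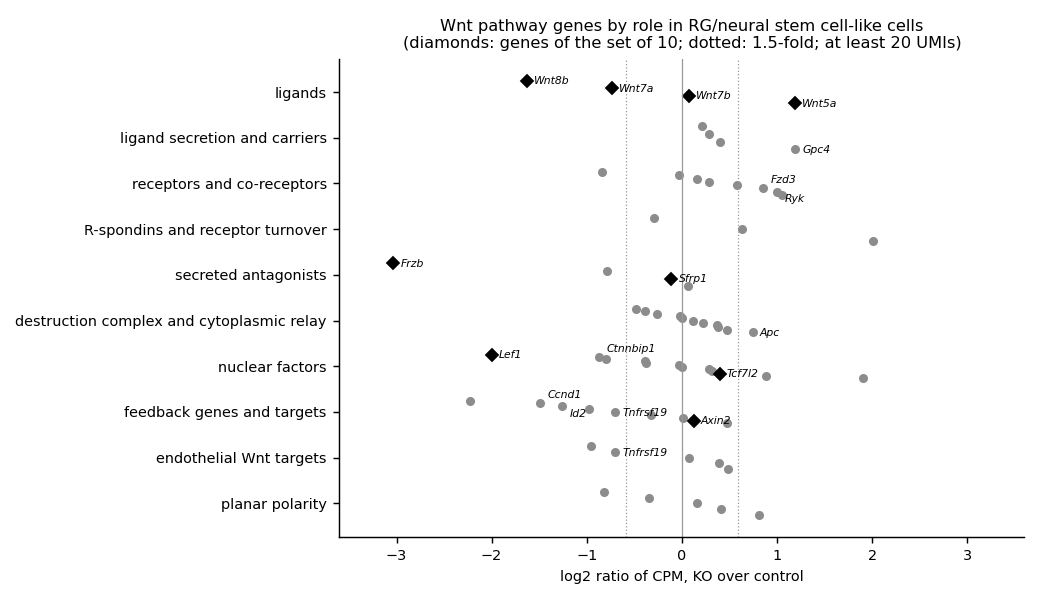
Log2 ratio of CPM, KO over control, in RG-like cells for Wnt pathway genes with at least 20 UMIs, by role (rows); diamonds are genes of the set of 10 and dotted lines mark 1.5-fold. Frzb, Lef1 and Wnt8b lie farthest left in their roles. Of 9 feedback genes and targets 5 lie left of the line, against 14.1% of all genes measured in the class.

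In intermediate progenitor-like cells 46 list genes were measured, 4 higher and 5 lower, against 8.93% and 13.6% of all genes. Nkd1, a feedback inhibitor, was at 71.3 CPM in KO and 37.6 CPM in control cells (0.92; 1.15 to 3.12), and Neurod1, a neuronal factor reported as a Wnt target, at 438 and 805 CPM (-0.87; 0.465 to 0.636). Ryk (0.76), Tnks (0.61), Slc7a5 (0.65), Cldn3 (-0.93) and Fzd1 (-0.90) had intervals that held 1, and Csnk1d, a casein kinase of the relay, was at -0.70. Neuroblast-like cells had 3 higher and 8 lower of 45, against 8.60% and 11.3% of all genes, with Apc at 346 CPM in KO and 227 CPM in control cells (0.61), Pygo1, which binds the beta-catenin complex, at 65.5 and 41.1 CPM (0.68), Cldn3 at 16.4 and 44.0 CPM (-1.36), Csnk1d at -0.71 and the co-receptor gene Lrp6 at -0.59, with an interval that held 1.

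Astrocyte-like cells, 63 KO and 236 control, had 12 higher and 6 lower of 64 list genes and a list median of 0.23 against -0.01 over all genes, where 11.1% were higher and 11.3% lower. Nkd1 was at 54.5 CPM in KO and 25.2 CPM in control cells (1.13; 1.22 to 3.77), the co-repressor gene Tle1 at 124 and 72.1 CPM (0.79), Dkk3 at 102 and 59.2 CPM (0.79) and the receptor ubiquitin ligase gene Znrf3 at 47.1 and 27.2 CPM (0.81), the last with an interval that held 1. Ctnnbip1 was at 560 and 1045 CPM (-0.90; 0.464 to 0.617) and Ctnnb1, the beta-catenin gene, at 126 and 203 CPM (-0.67; 0.452 to 0.839), while Ryk was at -0.80 with an interval that held 1. Of the 7 members measured, 0 passed 1.5-fold. In endothelial-like cells 3 list genes were higher and 5 lower of 85, against 4.30% and 5.42% of all genes, with Dkk2 at 0.61 (interval holding 1) and the Wnt acyltransferase gene Porcn at 5.39 and 10.2 CPM (-0.91; 0.317 to 0.859).

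Patterns alike to each member were sought over 47 profiles, a cluster in 1 library each, as Pearson's r of log2(CPM + 10) among 11156 genes. The profiles share libraries and depth, and r is given as a description. Tcf7l2 was nearest to S100a13 (0.914), Tns3 (0.912) and Inppl1 (0.898), and Axin2 to Rbms2 (0.896), Trip10 (0.869) and Parva (0.844). Wnt8b was nearest to Agt (0.795), Gdf10 (0.792) and Cnmd (0.764), Wnt7b to Diablo (0.797), Gca (0.778) and Slc7a10 (0.734), and Wnt7a to Npas3 (0.789), Nr2e1 (0.775) and Ptprz1 (0.766). Sfrp1 was nearest to Gstz1 (0.781), Pou3f3 (0.773) and Pax6 (0.771), Lef1 to Trp53 (0.773), Mta2 (0.762) and Tpm4 (0.741), Wnt5a to Igfbp5 (0.709), L3mbtl3 (0.706) and Zfp536 (0.675), and Frzb to Prex2 (0.621), Plekhg1 (0.606) and Grb10 (0.598). Fzd8 had too few UMIs to be placed. Between members the highest r was 0.621, for Frzb and Lef1, and the lowest -0.29, for Wnt7b and Lef1.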

How the data were processed

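The deposited files hold UMI counts per gene and cell, made by the authors with Cell Ranger 3.0.2 on mm10, with Seurat 3 also named, per the submitters' processing notes; the labels' protocols give papain dissociation and 10x Chromium 3′ libraries aimed at 2500 cells per genotype. A barcode was kept from 500 genes and 1000 UMIs upwards if its mitochondrial share did not exceed 10%, 1967 of 2292 in KO and 3029 of 3555 in control. The highest Scrublet scores (0.8% per 1000 barcodes) were removed as doublets, 36 and 72 cells, since the tool's own threshold marked 0.785% and 0.309%. Cells were clustered with scanpy 1.11.5 and Leiden (leidenalg 0.10.2; 2000 variable genes, 30 components, 15 neighbours, resolution 1), leaving out Wnt genes and markers. A cluster was named for the type with the most markers among its 10 leading genes, ties going to the higher mean marker fold, if at least 3 markers were detected, no other type's marker led it, the mean log2 fold passed 1 where no marker was leading, and its median UMI count was not far below its library's; rebuilt names may differ from the study's. Doublets below the score threshold remain possible.

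UMIs were summed per class and library and given as CPM with exact 95% Poisson intervals. Log2 ratios had 0.5 UMI added, with exact conditional binomial ratio intervals; a gene with at least 20 UMIs was measured, and 1.5-fold counted as higher or lower. Shares of cells have exact Clopper-Pearson limits, and a share of 0 allows 3 counts of the total. Named genes of the wider list had at least 50 UMIs and were past 1.5-fold. They were ranked by whichever end of the ratio's interval lay closer to 1, up to 4 in each direction per class. In RG-like cells Sp5, Nkd1, Dkk3, Fzd1, Fzd2, Rspo1, Lgr4, Bcl9l and Tcf7l1 fall outside this and were named after their values were seen. Ratios and intervals were tested on simulated data. No test between genotypes was run, since each has 1 library. In summed UMIs, fewer cells of a kind and less RNA per cell cannot be told apart. Alternative settings included TMM (edgeR 4.0.16) and median-of-ratios (DESeq2 1.42.0) scaling, and 3 were added after seeing the data. The genes and lists were chosen with earlier results of these data known. Gene positions are those of GRCm38.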

Additional observations from a re-analysis of the deposited data

Results flagged for a closer look

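Sfrp1 stood on opposite sides in the neuron classes. Its log2 ratio, KO over control, was 0.86 in pyramidal neuron-like cells and -1.09 in GABAergic neuron-like cells, and the difference between these values was not tested. After thinning to 2000 UMIs the pyramidal value was 0.29, within 1.5-fold. Both GABAergic clusters were lower in the KO library, cluster 11 (32 UMIs in KO, 43 in control cells) at -1.0 and cluster 16 (5 and 17 UMIs) at -1.76. Of the pyramidal clusters, cluster 1 was at 0.69, cluster 3 at 0.80 and cluster 9 at 1.05, while cluster 8 was at -0.11. The intervals of clusters 3 and 8 held 1. The pyramidal name was weak in most of these clusters. The mean log2 fold of the pyramidal marker list over all other cells was 0.005 in cluster 1, 0.21 in cluster 3 and -0.05 in cluster 9, against 0.64 in cluster 8. The name rested on 1 or 2 leading markers in each.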

How the results depend on the processing

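No paired analysis was possible because each genotype has 1 library and the labels carry no replicate number, and for the same reason no replicate could be left out. Over all cells, 169 of 180 values for the 10 genes stayed within the interval of the reported ratio and 11 moved. Within classes 865 of 911 stayed, 43 moved and 3 changed the sign of a ratio past 1.5-fold; the cause was not tested. Depth limits most members in small classes, where under 20 UMIs were counted. Neuroblast-like cells were not found at Leiden resolution 0.5, and no scaling shifted all genes by over 0.1 on the log2 scale.

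In RG-like cells the subclusters, an alternative chosen after seeing the data, gave these log2 ratios. Mantel-Haenszel weights over 3 subclusters gave Wnt8b 0.74, Sfrp1 -0.52, Frzb -0.92 and Lef1 -0.42. Subcluster 1 alone gave Wnt8b 0.69, Sfrp1 -0.77, Frzb -0.89 and Lef1 -0.24, subcluster 0 gave Sfrp1 -0.58 and Tcf7l2 -0.44, and subcluster 2 gave Wnt7b -0.95. Assigning cells by marker level gave Wnt8b -0.38 and Sfrp1 0.33. Frzb and Lef1 kept their sign in 18 of 18 alternatives. In oligodendrocyte lineage-like cells, clustering without genes that differ between libraries gave Wnt7b 0.0029, against -0.95.

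Over all cells, weighting each cell alike gave Wnt7a -0.22, Sfrp1 -0.082 and Frzb -0.82, and thinning to 2000 UMIs gave Wnt5a -0.089 and Wnt7a -0.41. Using only Xist-positive cells without Y-linked UMIs gave Sfrp1 -0.30 and Frzb -0.80. Mantel-Haenszel weights over clusters gave Wnt7b 0.17, Wnt8b -0.45 and Sfrp1 -0.13, and leaving out clusters 14 and 18, also chosen after seeing the data, gave Wnt8b -0.64.

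Counts of higher and lower Wnt list genes moved by over 1.5 times as follows. The share over all genes was not computed for these settings, so the counts cannot be set against it. In intermediate progenitor-like cells they were 8 and 9 with stricter filters and with KO UMIs drawn down, 7 and 9 with no doublets removed, 7 and 8 with 4000 variable genes and 9 and 8 without differing genes in the clustering. Higher genes there numbered 7 by marker level and 8 after thinning. With 4000 variable genes, or without differing genes, 1 neuroblast gene was higher. Lower astrocyte genes numbered 3 at resolution 0.5. Higher endothelial genes numbered 1 at resolution 2 and 5 with list genes kept in the clustering. By marker level 9 RG-like and 3 endothelial genes were lower. With each cell weighted alike 20 RG-like genes were higher, 10 astrocyte genes lower, and 10 and 8 endothelial genes higher and lower. After thinning 9 RG-like genes were lower, 9 and 4 neuroblast genes higher and lower, 6 astrocyte genes higher, and 6 and 3 endothelial genes higher and lower. In cells with Xist 7 astrocyte and 6 endothelial genes were higher. With at least 50 UMIs per gene 5 RG-like genes were higher, 3 neuroblast genes lower, 5 and 3 astrocyte genes higher and lower, and 1 and 1 endothelial. With no minimum the higher and lower counts were 25 and 25 in RG-like, 20 and 19 in intermediate progenitor-, 18 and 24 in neuroblast- and 16 and 16 in endothelial-like cells, and 27 astrocyte genes were higher. At 2-fold they were 5 and 6, 0 and 1, 0 and 4, 0 and 1 in the same classes, and 4 and 2 in astrocyte-like cells.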

Other observations

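Cluster 18, where Wnt8b and Wnt5a peaked, also held other genes of Wnt secretion and amplification within 1.5-fold between the libraries. Wls, which carries Wnt proteins to the cell surface, was at 982 CPM in KO and 868 CPM in control cells. The R-spondin genes, whose products strengthen Wnt signalling by sparing receptors, were at 392 and 393 CPM (Rspo3), 154 and 225 CPM (Rspo2) and 135 and 131 CPM (Rspo1), and the receptor gene Fzd10 was at 72 and 62.4 CPM. Each of these ratios had an interval that held 1, from 71 KO and 25 control cells. Apc was at 252 CPM in KO and 156 CPM in control cells (log2 ratio 0.67; ratio interval 1.04 to 2.59), and Ctnnbip1 at 176 and 281 CPM (-0.69; 0.430 to 0.920).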
